A study of Rattus norvegicus with 11 samples.

Results

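The nuclear receptors are transcription factors that bind small lipid-soluble ligands or, as orphan receptors, have none that is known for sure. A list of 46 of them was taken by gene symbol, as members of the family and by a rule that uses no measured value, from the 25275 gene rows counted in rat retroperitoneal white adipose tissue. They stand on 47 rows, since Nr3c1 is given on 2 rows. All 11 rats were wild-type Wistar females that ate a western diet for 6 weeks from 10 weeks of age, were ovariectomized, received degarelix (a blocker of the gonadotropin-releasing hormone receptor, which lowers pituitary output of gonadotropins) and carried an osmotic pump. The pump held vehicle in 6 rats, the degarelix-only group, and follicle-stimulating hormone (FSH) at 6 µg/kg/day in 5 rats. Food was restricted for 12 days to hold body weight, then free for 7 days, and the tissue was taken after a 4 h fast at 19 weeks of age. The ovarian source of estrogen and progesterone was therefore absent from both groups, and the comparison asks how the fat depot differed with added FSH under that condition.

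A nuclear receptor carries a zinc-finger domain that binds DNA and, in most members, a pocket for its ligand, and ligand binding exchanges corepressor proteins for coactivators at target genes. The steroid hormone receptors act mostly as pairs of like molecules and wait in a complex with heat shock proteins, while the receptors for fatty acids, oxysterols, thyroid hormone, retinoic acid and vitamin D bind DNA as a pair with a retinoid X receptor (RXR). In white fat, PPARG with RXRA drives the formation of fat cells and their lipid storage genes.

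The promoters of Vdr and Rxra are shown because these were the only receptors past the test of all genes. Each line holds the 250 bases before the start of the gene in the RefSeq annotation of GRCr8, read 5′ to 3′ on the strand of the gene, with the GC box (GGGCGG, or CCGCCC on the other strand) in capitals. The Vdr stretch is chr7:130916758-130917007 on the minus strand and the Rxra stretch is chr3:31387642-31387891 on the plus strand.
Vdr: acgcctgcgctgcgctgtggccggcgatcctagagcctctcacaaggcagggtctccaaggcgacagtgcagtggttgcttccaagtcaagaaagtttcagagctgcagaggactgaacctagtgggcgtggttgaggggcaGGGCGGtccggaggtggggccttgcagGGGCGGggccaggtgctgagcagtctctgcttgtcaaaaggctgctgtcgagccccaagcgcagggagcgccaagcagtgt
Rxra: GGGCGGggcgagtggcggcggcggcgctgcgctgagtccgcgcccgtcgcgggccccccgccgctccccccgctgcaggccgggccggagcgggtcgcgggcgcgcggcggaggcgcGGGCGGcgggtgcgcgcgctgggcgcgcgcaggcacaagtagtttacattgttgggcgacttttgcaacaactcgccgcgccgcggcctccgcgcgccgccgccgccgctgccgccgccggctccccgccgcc

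Both stretches held 2 GC boxes, which begin 108 and 81 bases before the start of Vdr and 250 and 133 bases before that of Rxra. GC made up 63.6% of the Vdr stretch and 82.8% of the Rxra stretch. A GC box occurred in 30.5% of all 33469 promoters of the same length and in 51.0% of the 49 promoters of the 40 receptors that the table holds. All motifs were searched on both strands, and no match overlapped another. The core motif that most nuclear receptors recognise, AGGTCA, was in neither stretch, and it occurred in 14.1% of all promoters and 10.2% of the receptor promoters. A TATA box with the letters TATAAA was in neither stretch (12.9% and 6.12%). The letters CCAAT were in neither (34.0% and 28.6%). An E-box with the letters CACGTG was in neither (5.59% and 8.16%).

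Total counts per library lay between 16452117 and 23694602 in the degarelix-only rats and between 13163021 and 19837706 in the FSH-treated rats. Levels are given as CPM, the count per 1000000 counts of the TMM-scaled library total. They are not scaled to gene length, so they compare rats for 1 gene and not genes with one another. The 6 fat cell markers were present in every rat, with a summed level of 35766 to 44807 CPM in the degarelix-only rats and 37320 to 47470 CPM with FSH. In this bulk tissue, fewer cells of a type and less RNA per cell cannot be told apart. FSH replicate 3, which also had the smallest total, stood apart in the markers of Schwann cells, which wrap nerve fibres. Its level of Mbp, a myelin protein, was 1314 CPM against 52.1 to 90.9 CPM in the other 10 libraries, and its Sox10 level was 64.4 CPM against at most 4.80 CPM. Values without that library are given beside the results that rest on it.

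Of the 46 receptors, 39 had at least 1 count and 32 had a count in every library. The 7 receptors with 0 counts in all 11 libraries were Esr2 and Pgr, the estrogen receptor beta and the progesterone receptor, Rorb, Nr2e1, Nr2e3, Nr5a1, the regulator of steroid-producing cells known as SF-1, and Nr0b1. A count of 0 in a library allows a level of up to 0.127 to 0.223 CPM (3 counts of the scaled total), and this limit covers counting error only.

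A further 9 receptors had too few counts to enter the test. They were Ppara, the fatty acid sensor of liver, with 103 counts over all libraries, Hnf4a with 79, Esrrb with 51, Nr1i2 with 26, Nr0b2 with 15, Nr1h4, the bile acid receptor, with 13, Hnf4g with 8, Nr1i3 with 5 and Nr6a1 with 1. The other 30 receptors, on 31 rows, were tested. Between 35 and 38 receptor rows had a count in any 1 library.

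**Figure D1:**
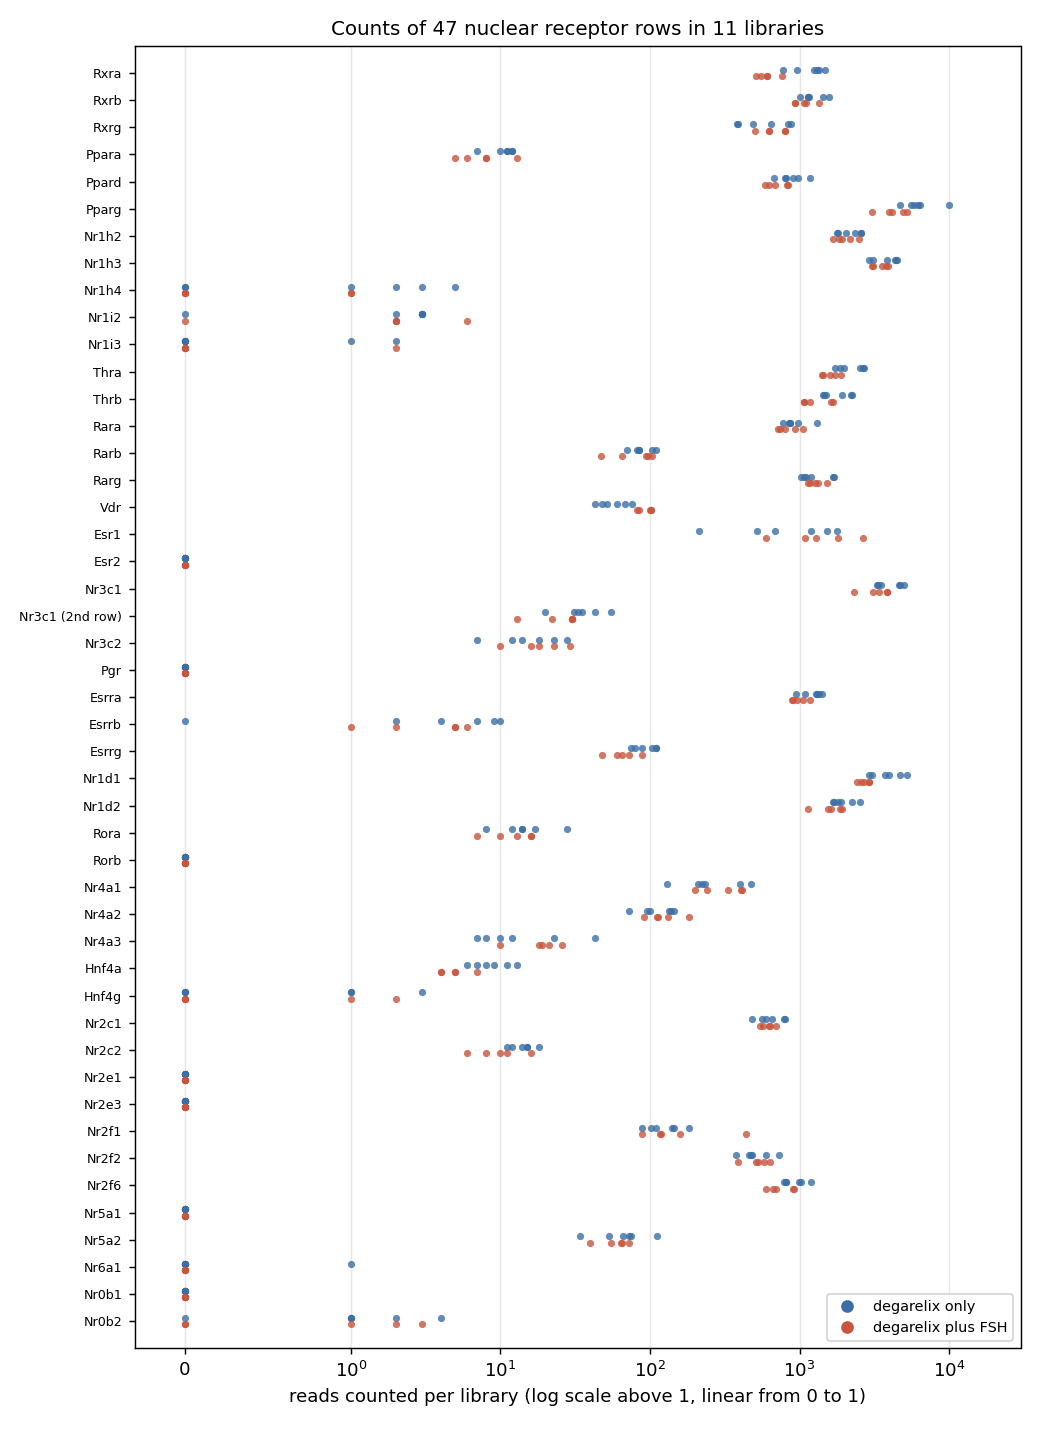
Reads counted for each of the 47 nuclear receptor rows (vertical axis) in each of the 11 libraries (horizontal axis, log scale above 1 and linear from 0 to 1), with degarelix-only rats and FSH-treated rats in separate colours. The 7 receptors without a count lie at 0, and the 9 that were not tested have at most 13 reads in any library.

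With FSH, Vdr rose and Rxra fell, and these were the only receptors past an adjusted p of 0.05 in edgeR's quasi-likelihood test. They were 2 of 31 rows, or 6.45%, where 2.27% of all 12846 genes tested were called (292 genes, 1.21% higher and 1.07% lower with FSH). At an unadjusted p under 0.05 there were 5 receptor rows, or 16.1%, against 22.6% of all genes. Vdr and Rxra were also the only rows whose groups did not overlap, 6.45% of rows against 4.34% of all genes. With counts this small, the receptors' shares are a description and do not set the family apart from other genes. The difference between groups was positive in 16 rows and negative in 15, and 27 of 31 lay within 0.5 on the log2 scale. The median log2 change of the 31 rows was 0.0084, against 0.0081 for all genes tested.

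**Figure D2:**
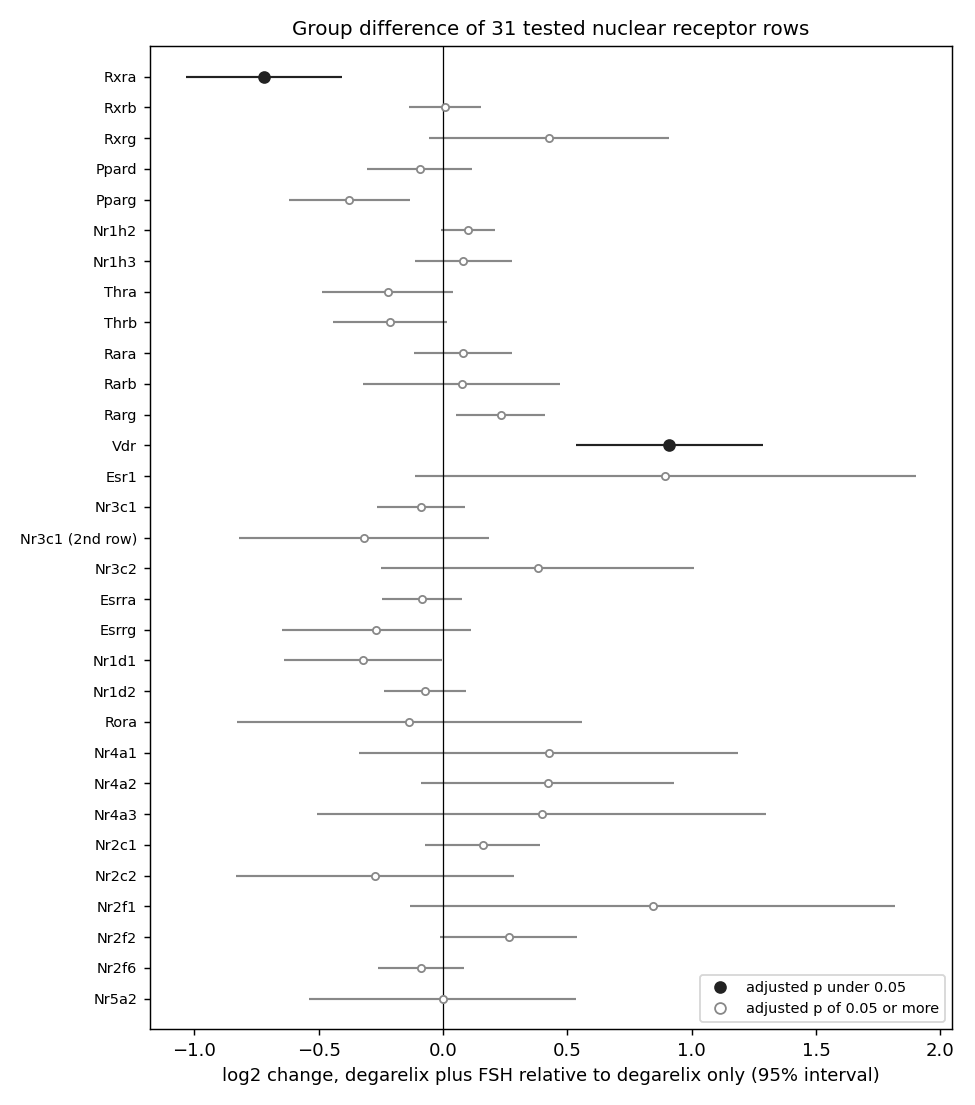
Log2 change with FSH relative to degarelix only (horizontal axis, points with 95% intervals) for the 31 tested nuclear receptor rows (vertical axis), ordered by role. Filled points mark adjusted p under 0.05, which only Vdr (0.91) and Rxra (-0.72) passed, and the other intervals are wide for Esr1, Nr2f1, the NR4A receptors and low-count members.

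Vdr (ENSRNOG00000054420), the receptor for the active form of vitamin D, had a low level in every rat. In the degarelix-only rats it ran from 2.20 CPM through a median of 2.92 to 4.21 CPM. The 5 FSH-treated rats had 6.13, 6.23, 6.09, 4.95 and 4.85 CPM. All 5 thus lay above the highest degarelix-only rat. The mean was 3.01 ± 0.753 CPM (SD, n = 6) without FSH and 5.65 ± 0.689 CPM (SD, n = 5) with it, a log2 change of 0.91 ± 0.17 (SE, edgeR adjusted p = 0.0311). The values rest on 43 to 76 reads per library in the degarelix-only group and 82 to 102 in the FSH group.

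The enzymes that make and remove the Vdr ligand were read from the same rats. Cyp27b1, which makes active vitamin D, had 1.86 ± 0.557 CPM without FSH and 0.900 ± 0.347 CPM with it (SD, n = 6 and 5), and its log2 change of -1.01 ± 0.28 did not pass (edgeR adjusted p = 0.0750). Cyp24a1, which degrades vitamin D and is a classical Vdr target, had 0 counts in all 11 libraries. Endothelial markers were read alongside, and 1 of 6 (Tek) passed the test, where 2.27% of all genes tested did. Their median log2 change was 0.35, and their summed level was 1159 to 1537 CPM without FSH and 1328 to 2108 CPM with it. Their part in the Vdr result was not tested.

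Rxra (ENSRNOG00000009446) encodes the RXR that is the usual partner of PPARG in fat cells. Its level in the degarelix-only rats ran from 47.1 CPM through a median of 60.8 to 71.6 CPM. The FSH-treated rats had 30.8, 34.1, 45.1, 44.9 and 29.5 CPM. Each of them lay below the lowest degarelix-only rat, replicates 3 and 4 by the smallest margin. The mean fell from 60.6 ± 9.59 CPM (SD, n = 6) to 36.9 ± 7.58 CPM (SD, n = 5), a log2 change of -0.72 ± 0.14 (edgeR adjusted p = 0.0335).

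The other RXR genes did not pass the test. Rxrb had 63.8 ± 4.89 CPM without FSH and 64.2 ± 4.04 CPM with it, and the 95% interval of its log2 change ran from -0.14 to 0.15. Rxrg had 30.5 ± 8.39 and 41.1 ± 12.5 CPM, with a log2 change of 0.43 ± 0.22 (edgeR adjusted p = 0.274). FSH replicate 3 had the highest Rxrg level at 59.8 CPM, and without that library the log2 change was 0.25. Whether Rxra differed in its change from Rxrb or Rxrg was not tested.

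**Figure D3:**
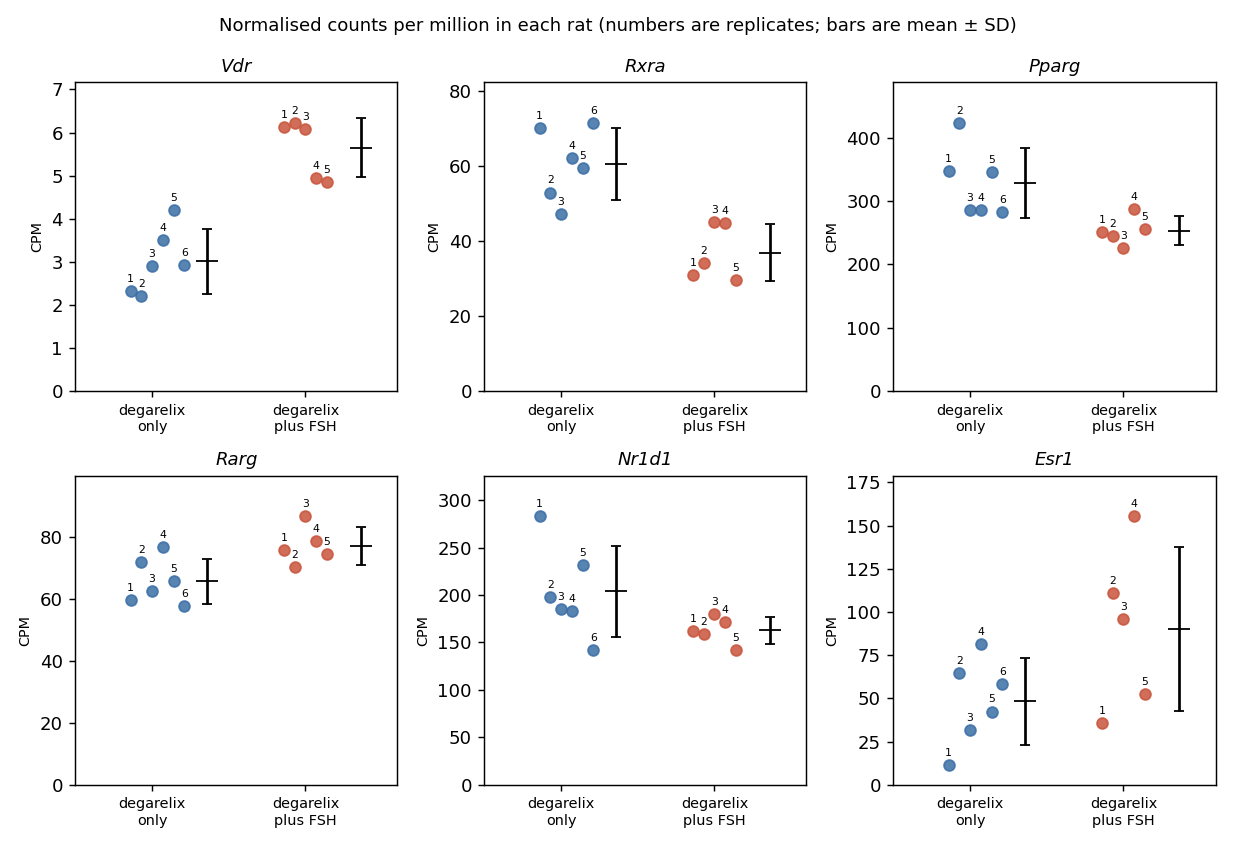
Level in CPM (vertical axis, from 0) of Vdr, Rxra, Pparg, Rarg, Nr1d1 and Esr1 in each rat, by group (horizontal axis), with the mean and SD as black bars beside the points and the replicate number above each point. The groups are separate for Vdr and Rxra, and overlap for the other 4.

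Both calls could be lost by leaving out 1 library. With each of the 11 libraries left out in turn, the Vdr log2 change stayed between 0.83 and 1.02 and the call was kept in 5 of 11 fits. It ended without degarelix-only replicate 1 (edgeR adjusted p = 0.0629) or 6 (0.0633) and without FSH replicate 1 (0.0738), 2 (0.0766), 3 (0.0552) or 5 (0.0619). The Rxra log2 change stayed between -0.80 and -0.65 and its call was also kept in 5 of 11 fits. It ended without degarelix-only replicate 1 (0.0725), 5 (0.0603) or 6 (0.0646) and without FSH replicate 1 (0.0809), 2 (0.0893) or 5 (0.0807). The size of both changes therefore moved little, while the adjusted p lay close to the threshold. Without FSH replicate 3, the unadjusted edgeR p of Rxra fell from 0.000304 to 0.000185, while its adjusted p rose from 0.0335 to 0.0448. The unadjusted p of Vdr rose from 0.000190 to 0.000576.

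**Figure D4:**
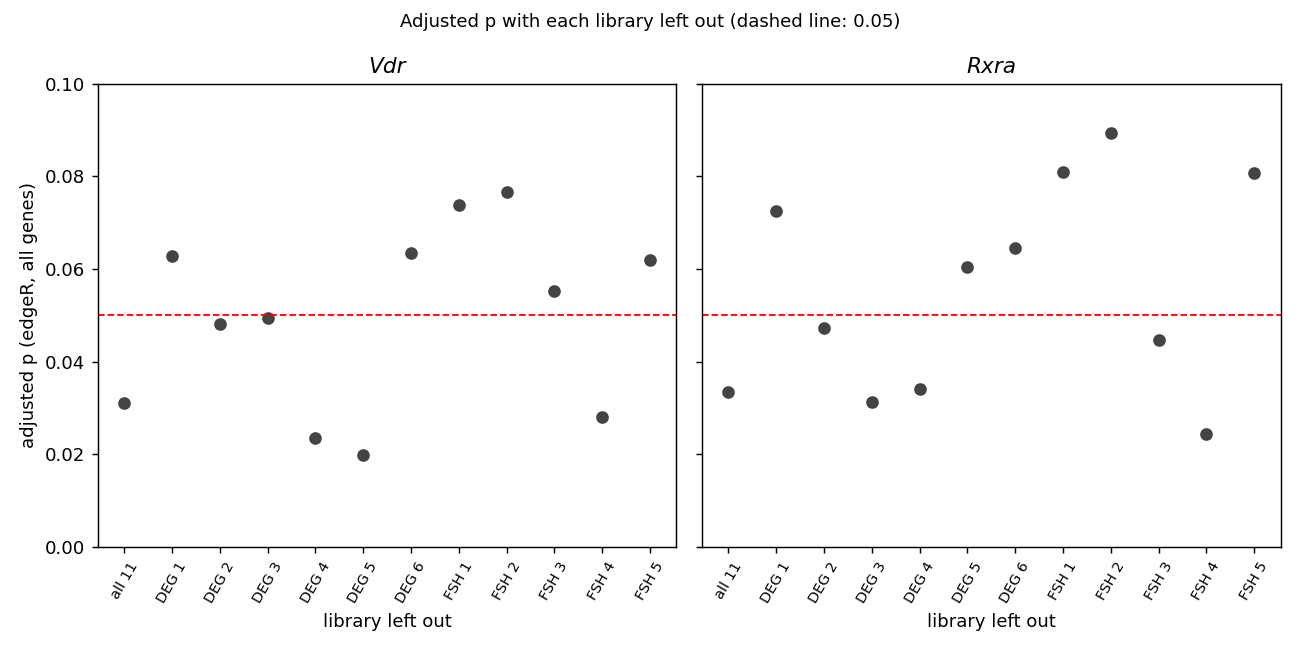
Adjusted p of Vdr and Rxra (vertical axis, edgeR over all genes). The leftmost point is the fit with all 11 libraries, and the other 11 points each leave out the library named on the horizontal axis. The dashed line is the threshold of 0.05. For each gene, 6 of these 11 points lie above it, up to 0.0766 for Vdr and 0.0893 for Rxra.

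Among the lipid and sterol sensors, 4 of 8 receptors were tested and none passed. Pparg (ENSRNOG00000008839), the master regulator of fat cell formation, ran from 282 CPM through a median of 316 to 424 CPM without FSH. The FSH-treated rats had 251, 245, 226, 288 and 255 CPM. Of these 5, 4 lay below the lowest degarelix-only rat and replicate 4 lay within that group. The log2 change was -0.38 ± 0.11, with a 95% interval from -0.62 to -0.13, an unadjusted p of 0.00552 and an edgeR adjusted p of 0.0893. DESeq2 gave an adjusted p of 0.0194, so the call depended on the tool.

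Ppard, the more widely expressed fatty acid sensor, had 45.6 ± 3.33 CPM without FSH and 42.7 ± 6.86 CPM with it, a log2 change of -0.09 ± 0.10 (-0.16 without FSH replicate 3). The liver X receptors, which sense oxysterols, had small differences. Nr1h3 (LXR alpha) ran from 180 through 188 to 234 CPM without FSH and was 183, 219, 229, 228 and 184 CPM with it, so the groups overlapped almost fully (log2 change 0.08 ± 0.09, edgeR adjusted p = 0.616). Nr1h2 (LXR beta) had 112 ± 3.83 and 120 ± 5.86 CPM and a log2 change of 0.10 ± 0.05 (edgeR adjusted p = 0.260).

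Lists of target genes were read beside the sensors and are described by their counts and medians. None of 15 PPARG targets of fat cells passed, and their median log2 change was -0.15. With a library left out it ran from -0.21 to -0.09, the latter without degarelix-only replicate 1, and it was -0.20 without FSH replicate 3. The 2 with the smallest p were Gpd1, which makes the glycerol backbone of triglyceride, at -0.62 ± 0.17 (edgeR adjusted p = 0.0686), and Fabp4, the fatty acid carrier of fat cells, at 0.30 ± 0.09 (0.103). Their directions were opposite. None of 9 LXR targets passed (median -0.16, and -0.08 without FSH replicate 3 and -0.26 without FSH replicate 2). Mylip, which lowers the LDL receptor, was at 0.36 ± 0.12 (0.114), and Srebf1, a driver of fatty acid synthesis, was at -0.27 ± 0.10 (0.155).

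Of 11 PPARA and PPARD targets described, 1 rose and none fell, and the median log2 change was -0.03, from -0.11 to 0.10 with a library left out. Cpt1a, which admits long-chain fatty acids into mitochondria, ran from 27.9 through 31.1 to 38.5 CPM without FSH and was 40.5, 52.3, 46.9, 38.5 and 41.1 CPM with it. FSH replicate 4 touched the highest degarelix-only rat, and the other FSH-treated rats lay above that group. The log2 change was 0.46 ± 0.10 (edgeR adjusted p = 0.0440). The call was kept in 2 of 11 fits with a library left out, those without degarelix-only replicate 4 or FSH replicate 4, and the adjusted p lay between 0.0505 and 0.102 in the other 9. Slc25a20, which carries acylcarnitines across the inner mitochondrial membrane, was at 0.14 ± 0.07 (0.247). Over the 12 pathway lists, 2 of 119 genes tested passed, or 1.68%, against 2.27% of all genes.

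The receptors for thyroid hormone and retinoic acid overlapped between groups. Thra and Thrb, the thyroid hormone receptors, had log2 changes of -0.22 ± 0.12 and -0.21 ± 0.11 (edgeR adjusted p = 0.296 and 0.254). Thra was 104, 87.2, 118, 111 and 70.1 CPM with FSH, and 3 of these 5 rats lay below the degarelix-only range of 106 to 131 CPM. Without FSH replicate 3 the unadjusted p was 0.0307 for Thra and 0.0444 for Thrb, and the adjusted p was 0.200 and 0.235. None of 6 genes of thyroid hormone handling and response passed (median -0.06, from -0.19 to -0.00063 with a library left out). Thrsp, a lipogenic gene driven by thyroid hormone, was at -0.76 ± 0.34 (0.217), and Me1, the malic enzyme that makes NADPH for lipid synthesis, was at -1.32 ± 0.57 (0.200). Me1 ranged from 289 to 2954 CPM within the degarelix-only group.

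Rarg, a retinoic acid receptor, ran from 57.8 CPM through 64.2 to 76.6 CPM without FSH and was 75.9, 70.1, 86.6, 78.6 and 74.5 CPM with it. All 5 FSH-treated rats lay above the degarelix-only mean of 65.7 CPM, and the ranges overlapped. The log2 change was 0.23 ± 0.08 (unadjusted p = 0.0153, edgeR adjusted p = 0.132). Rara was at 0.08 ± 0.09 and Rarb, with 4.60 ± 0.655 and 4.83 ± 1.26 CPM, at 0.07 ± 0.18. None of 11 retinoid handling genes passed, with 8 positive, 3 negative and a median of 0.28. That median was 0.15 without FSH replicate 3 and ran from 0.11 without FSH replicate 5 to 0.39 without FSH replicate 4. Lrat, which stores retinol as esters, was at 0.47 ± 0.13 (0.0809) and Aldh1a2, which makes retinoic acid, at 0.53 ± 0.22 (0.188), or 0.29 without FSH replicate 5.

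None of the 5 steroid hormone receptors in the list passed, and Pgr and Esr2 had no counts. Esr1, the estrogen receptor alpha, varied widely between rats of 1 group. It ran from 11.5 CPM through 50.4 to 81.4 CPM without FSH and was 35.7, 111, 96.1, 155 and 52.5 CPM with it. FSH replicates 2, 3 and 4 lay above every degarelix-only rat, and replicates 1 and 5 lay within that group. The log2 change was 0.89 ± 0.46, with a 95% interval from -0.11 to 1.90 and an edgeR adjusted p of 0.274. Its log2 change was thus close in size to the 0.91 of Vdr, with a wider spread between rats.

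Nr3c1, the glucocorticoid receptor, ran from 181 through 211 to 230 CPM without FSH and was 186, 209, 172, 225 and 186 CPM with it. The groups overlapped and the log2 change was -0.09 ± 0.08 (edgeR adjusted p = 0.553). Its second row had 1.84 ± 0.502 and 1.47 ± 0.368 CPM (-0.32 ± 0.23), and how reads were divided between the rows is not given in the sources used here. Nr3c2, the mineralocorticoid receptor, had 0.858 ± 0.326 and 1.11 ± 0.276 CPM (0.38 ± 0.29).

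None of 11 glucocorticoid receptor targets passed. Their median log2 change was 0.23, and it was 0.10 without FSH replicate 3 and 0.42 without degarelix-only replicate 4. Errfi1, a feedback inhibitor of the EGF receptor, was at 0.66 ± 0.19 (edgeR adjusted p = 0.0871) and Sgk1, a serum- and glucocorticoid-induced kinase, at 0.57 ± 0.17 (0.0949). Fkbp5, a chaperone-binding target used as a readout of glucocorticoid action, was at -0.02 ± 0.24.

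The 6 steroid receptor chaperones tested all had negative log2 changes, with a median of -0.41, and none passed. The median was -0.21 without degarelix-only replicate 4 and -0.53 without degarelix-only replicate 2. Hsp90aa1, the inducible HSP90, was at -0.75 ± 0.26 (edgeR adjusted p = 0.131) from a mean of 3.40 CPM, and Fkbp4, an HSP90 partner, at -0.52 ± 0.24 (0.227), or -0.28 without degarelix-only replicate 4. Genes of the HSP90 family have near-identical copies, so their counts are uncertain. None of 13 enzymes for steroid, vitamin D and oxysterol ligands passed (median -0.08, from -0.12 to -0.03 with a library left out). Besides Cyp27b1, Hsd17b7, which acts in cholesterol and estradiol synthesis, had the smallest p, with a log2 change of -0.44 ± 0.11 (0.0608). Cyp19a1, the aromatase that makes estrogen, had 0 counts in every library.

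The estrogen-related receptors are orphan receptors of mitochondrial and oxidative genes. Esrra had 63.2 ± 5.36 and 59.6 ± 5.09 CPM (-0.08 ± 0.07), and Esrrg had 4.85 ± 0.655 and 4.04 ± 1.05 CPM (-0.27 ± 0.17). Neither passed.

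Nr1d1 (REV-ERB alpha) and Nr1d2 (REV-ERB beta) are heme-binding repressors of the circadian clock, and Rora opposes them. Nr1d1 ran from 142 through 191 to 283 CPM without FSH and was 162, 159, 180, 172 and 142 CPM with it. All FSH-treated rats lay below the degarelix-only mean of 204 CPM, and the lowest rat of each group had 142 CPM. The log2 change was -0.32 ± 0.15 (unadjusted p = 0.0466, edgeR adjusted p = 0.214). It was -0.21 without degarelix-only replicate 1, the rat with 283 CPM. Nr1d1 overlaps Thra in the RefSeq annotation. Without a known strand setting, it is uncertain to which of the 2 genes reads from the shared stretch were counted. Nr1d2 was at -0.07 ± 0.08, and Rora, at 0.811 ± 0.395 and 0.727 ± 0.163 CPM, at -0.13 ± 0.32.

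Of 10 clock and clock output genes listed beside REV-ERB and ROR, 1 fell and none rose (median -0.09, from -0.13 to -0.02 with a library left out). Whether REV-ERB or ROR controls each of them in this tissue was not tested. Nfil3, a transcriptional repressor of the clock's output, ran from 8.58 through 10.5 to 11.7 CPM without FSH and was 6.85, 7.22, 8.02, 7.54 and 5.62 CPM with it. The groups did not overlap, and the log2 change was -0.55 ± 0.12 (edgeR adjusted p = 0.0367). The call was kept in 2 of 11 fits, without degarelix-only replicate 4 or FSH replicate 4, and the adjusted p was 0.0503 to 0.0875 in the others. Hlf, another clock output factor, was at -0.58 ± 0.15 (0.0632).

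The NR4A receptors are orphan receptors that are switched on within minutes of a stimulus. Nr4a1 ran from 7.07 through 12.3 to 28.6 CPM without FSH and was 12.1, 25.4, 30.0, 14.1 and 16.2 CPM with it. Degarelix-only replicate 3 and FSH replicate 3 were highest in their groups, and the groups overlapped. The log2 changes were 0.42 ± 0.35 for Nr4a1, 0.42 ± 0.23 for Nr4a2 and 0.40 ± 0.41 for Nr4a3, and none passed. Single libraries moved these values. Without FSH replicate 3, those of Nr4a1 and Nr4a2 were 0.22 and 0.13, and without degarelix-only replicate 3 that of Nr4a1 was 0.73. For Nr4a3 it was 0.25 without degarelix-only replicate 1 and 0.86 without degarelix-only replicate 4. None of 9 other immediate early genes passed (median 0.15, from -0.14 to 0.30 with a library left out). Egr2 was at 0.86 ± 0.61 (edgeR adjusted p = 0.422), with 15.3 CPM in FSH replicate 3, and at 0.11 without that library (0.931). Btg2 was at 0.15 ± 0.12 (0.469).

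Among the NR2 orphan receptors, 5 of 9 were tested and none passed. Nr2f1 (COUP-TF1), a regulator of neural and mesenchymal development, ran from 4.69 through 6.47 to 8.98 CPM without FSH and was 7.15, 7.16, 32.5, 5.18 and 7.66 CPM with it. Only FSH replicate 3 lay outside the degarelix-only range. The log2 change was 0.84 ± 0.45 with all libraries and 0.04 ± 0.20 without that one.

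The 4 Schwann cell markers moved with that library in part. Without S100b, which fat cells express at a high level too, their sum was 1562 CPM in FSH replicate 3, 66.5 to 85.9 CPM in the other FSH-treated rats and 73.2 to 105 CPM in the degarelix-only rats. The sum over all 4 was 3887 to 5266 CPM without FSH and 3093 to 6222 CPM with it. No marker was at 0. Their part in the levels of Nr2f1, Nr4a2 and Rxrg was not tested. The sum of mesothelial markers was also highest there, at 13.96 CPM. For Rxra the log2 change was -0.80 without that library (edgeR adjusted p = 0.0448), and for Vdr it was 0.88 (0.0552).

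**Figure D5:**
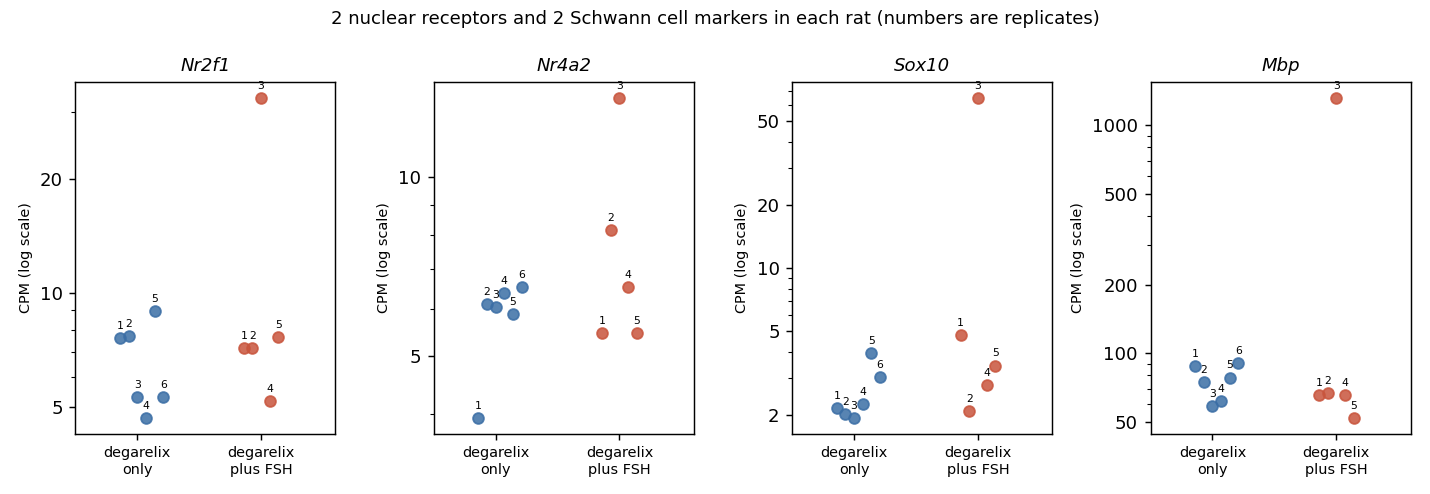
Level in CPM (vertical axes, log scale) of Nr2f1, Nr4a2 and the Schwann cell markers Sox10 and Mbp in each rat, by group (horizontal axis), with replicate numbers above the points. FSH replicate 3 is the highest point in all 4 panels, at 32.5 CPM for Nr2f1 and 1314 CPM for Mbp.

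None of the remaining orphan receptors passed. Nr2f2 (COUP-TF2), a regulator of venous and mesenchymal identity, had 26.4 ± 3.42 and 31.8 ± 5.75 CPM (0.26 ± 0.13, edgeR adjusted p = 0.241). Of the 5 FSH-treated rats, 4 lay above the highest degarelix-only rat, and replicate 4 lay within that group. Nr2f6 was at -0.09 ± 0.08, and the testicular receptors Nr2c1 and Nr2c2 were at 0.16 ± 0.11 and -0.27 ± 0.26. Nr5a2, the liver receptor homolog LRH-1, had 3.55 ± 1.18 and 3.54 ± 0.621 CPM, with a 95% interval of its log2 change from -0.54 to 0.54. At that spread a change of that size was not detectable.

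For the proteins that receptors recruit, only RNA was read. None of 10 coactivators (median -0.04) and none of 10 corepressors (median 0.04) passed. The log2 change was positive in 4 and negative in 6 coactivators, and positive in 6 and negative in 4 corepressors. With a library left out, these medians ran from -0.06 to 0.02 and from -0.0022 to 0.06. The coactivators with the smallest p were Crebbp, a histone acetyltransferase, at 0.21 ± 0.08 (edgeR adjusted p = 0.163), and Ncoa3, at -0.18 ± 0.08 (0.219). The corepressor components with the smallest p were Sin3a at 0.11 ± 0.07 (0.361) and Tbl1x at -0.10 ± 0.07 (0.419).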

How the data were processed

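RNA from 1 retroperitoneal fat sample per rat was sequenced, 6 degarelix-only and 5 FSH-treated rats, with a strand-marking kit per the labels' protocols. The authors deposited raw read counts, 1 row per Ensembl gene and 1 column per rat. STAR, edgeR, DESeq2 and the build rn6 are named in the submitters' processing notes without roles. How reads were counted (program, annotation release, strand setting) is not given in the sources used here. Counts are uncertain where a receptor gene overlaps another. Examples are Thra with Nr1d1 and Med24, Esrra with Trmt112, Nr1h3 with Acp2 and Rxrb with Slc39a7. Vdr overlaps 1 long non-coding RNA gene, Esr1 overlaps 2 non-coding RNA genes, and Rxra overlaps no gene. GRCr8 tables of RefSeq served for names, overlaps and promoters only.

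The Pcmt1 row was left out because 1 cell holds a letter. edgeR 4.0.16 (R 4.3.3) kept 12846 genes by filterByExpr, scaled them by TMM and tested them with robust quasi-likelihood F tests, read two-sided, on 9 residual degrees of freedom. Benjamini-Hochberg adjustment ran over all genes, with a threshold of 0.05. CPM are given with the SD between rats and log2 changes with the SE implied by the test. The steps were tested on simulated data. No pair of libraries looked like a repeat of 1 library, since every pair's chi-square over genes was at least 21.3 times its degrees of freedom.

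The receptors were listed by family and not by value. That list, the 12 pathway lists and the marker lists were nevertheless drawn up with earlier results of these data known. The file's own symbols matched 195 list symbols, and synonyms matched 2 more. Another 6 had no match, and 2 with more than 1 row were dropped. A few list genes are not reported here and are left out of the counts, medians and sums of their lists. Values per library are given for receptors past the adjusted or unadjusted threshold, receptors whose groups did not overlap and Pparg, Rxra, Vdr, Esr1, Nr3c1, Nr1h3, Nr1d1 and Nr4a1. From each list, members past the threshold and up to 2 with the smallest p are named. Rxrg, Nr2f1, Cyp24a1, Cyp19a1, Fkbp5 and single markers were named after their values were seen. Alternatives were 2 other scalings, 2 other filters, edgeR without robust estimation, limma-voom (limma 3.58.1), DESeq2 1.42.0, the replicate number as a block and each library left out. The medians of the pathway lists under these were added after seeing the data.

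Other marker lists gave these summed levels, without and with FSH. Beige fat cell markers had 161 to 261 and 146 to 220 CPM, progenitor markers 3475 to 5018 and 3439 to 5389, smooth muscle markers 623 to 891 and 779 to 1049, and macrophage markers 160 to 311 and 171 to 309. Among the beige markers, Ucp1 was 7.43 CPM in FSH replicate 3 and at most 0.124 CPM in every other library. T cell markers had 22.6 to 50.9 and 22.3 to 52.0 CPM, B cell markers 0.378 to 1.61 and 0.412 to 1.44, and mesothelial markers 0.917 to 7.39 and 2.04 to 13.96. Liver markers had 284 to 1326 and 329 to 2127 CPM, muscle markers 11.2 to 15.6 and 10.9 to 16.6, adrenal markers 53.0 to 70.1 and 54.4 to 63.6 (Cyp11b2 and Hsd3b2 at 0), and kidney markers 0.270 to 2.48 and 0.436 to 1.88 (Umod, Slc34a1 and Aqp2 at 0). No member of these lists that entered the test passed it. Many did not enter it, since only 1 of 6 kidney markers and 1 of 4 B cell markers were tested, for example.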

Additional observations from a re-analysis of the deposited data

Results flagged for a closer look

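In 4 of 62 groups of rats examined (31 receptor rows in each treatment group), 1 rat lay far from the others by Dixon's ratio of gap to range, which chance alone exceeds in about 1 of 20 groups. Nr2f1 was 32.5 CPM in FSH replicate 3, where the other FSH-treated rats had 5.18 to 7.66 CPM. Nr4a2 was 3.94 CPM in degarelix-only replicate 1, below 5.88 to 6.53 CPM in the rest of that group. Nr4a3 was 1.98 CPM in degarelix-only replicate 4, above 0.378 to 0.972 CPM. Nr1d2 was 88.6 CPM in degarelix-only replicate 6, below 101 to 107 CPM. None of these rows passed the test between groups.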

How the results depend on the processing

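Vdr and Rxra were both called in 7 of 8 alternatives that kept all libraries, and the number of receptors called was 2 in 6 of them and 3 with DESeq2. All genes called numbered 1135 with DESeq2 against 292. With the replicate block, 14 genes and 0 receptors passed (2331 genes and 8 receptor rows at an unadjusted p under 0.05), with Vdr at 0.93 (adjusted p = 0.141) and Rxra at -0.67 (0.139). Degarelix-only replicate 6 has no partner and drops out of that comparison. Same-numbered rats had deviations that correlated between -0.11 and 0.13, and 0 of 5 FSH libraries and 1 of 5 degarelix-only libraries correlated best with their own number, so the numbers were not taken as pairs. With each library left out, 30 to 551 genes and 0 to 2 receptors passed. The counts were 30 without FSH replicate 2, 551 without FSH replicate 4 and 532 without degarelix-only replicate 4. No receptor passed without degarelix-only replicate 1 or 6 or FSH replicate 1, 2 or 5. In those fits, 5 to 8 of 31 receptor rows had an unadjusted p under 0.05. Among all genes tested it was 2297 to 2528 of 12795 to 13000. The cause was not tested.

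Over the log2 changes of the 31 receptor rows, 550 alternative values kept direction and call, 14 lost a call and 1 gained one (Pparg, DESeq2). The 14 losses were all of Vdr and Rxra, each called in 5 of 11 fits with a library left out and in 7 of 8 others. The other rows had no call to lose, so most of the 550 values are of rows that stayed uncalled. A further 16 values changed sign, all in rows near 0. With the block, Rxrb was at -0.0308, Rarb at -0.0339 and Nr5a2 at 0.0333. Nr5a2 was also at 0.0081 with upper-quartile factors and 0.0789 with limma-voom. With a library left out, Rxrb ran from -0.0297 to 0.0438, Rarb from -0.0206 to 0.212, Rora from -0.242 to 0.136 and Nr5a2 from -0.157 to 0.101. Cpt1a also lost its call with no low-count filter (0.0529) and with the block (0.101), as did Nfil3 with the block (0.109). Scalings moved the median log2 change of all genes by less than the receptors' standard errors, from 0.0017 to 0.0196. Depth limits receptors under 100 reads per library, Vdr among them in most rats.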

Other observations

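Without the low-count filter, the 9 sparse receptors could be fitted among 17034 genes, and none passed. Hnf4a, a liver and gut regulator, had 0.472 ± 0.159 CPM in the degarelix-only rats and 0.296 ± 0.036 CPM with FSH, a log2 change of -0.65 (unadjusted p = 0.0627, edgeR adjusted p = 0.305). Ppara was at -0.15 (0.837).

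Covariation between rats was read in 6 pairs of genes as deviations from the group means over 11 rats, with 100000 permutations. Nr4a1 and the immediate early gene Fos had the highest Pearson r, 0.74 (permutation p = 0.0216, adjusted over the 6 pairs 0.130) with a Spearman rho of 0.55 (p = 0.0767, adjusted 0.460), and r was 0.62 without the 2 rats farthest from the Nr4a1 median. It did not pass the correction. The other pairs, Nr4a1 with Nr4a3 (r = 0.17), Nr1d1 with Nr1d2 (0.30), Nr1d1 with Arntl (-0.11), Rxra with Pparg (-0.08) and Nr3c1 with Fkbp5 (-0.23), had adjusted permutation p of 0.816.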
